A study of Mus musculus with 34 samples.

Results

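Acetylation of lysine 9 (H3K9ac) and of lysine 27 (H3K27ac) on histone H3 was compared within microglia, the resident macrophages of the brain, of control mice. The comparison took the 8 peak lists of the groups Ctrl H3K9ac and Ctrl H3K27ac, 4 libraries a mark, out of 32 libraries with a peak list and 34 samples in the series. All 8 came from hippocampus microglia of Tmem119-tdTomato+/- mice, which carry 1 reporter allele that makes microglia fluoresce. The labels give an age of 3 weeks after birth for replicates 1 to 3 of each mark and none for replicate 4. The profiles were made by ULI-NChIP-seq, an immunoprecipitation of unfixed nucleosomes scaled down to few cells. The series also profiled H3K4me3 and H3K9me3, and a group named FGR, in a study of intrauterine growth restriction; these lists serve below only as further readouts. Whether the replicates are separate animals is not stated in the labels, so a p-value here weighs the spread of 4 libraries a mark, which may be technical.

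Both acetylations neutralise a lysine charge on the histone tail and are read by bromodomain and YEATS domain proteins. H3K27ac is written mainly by p300 and CBP (genes Ep300 and Crebbp) and is used to map active enhancers as well as promoters. H3K9ac is written mainly by GCN5 and PCAF (Kat2a and Kat2b), the catalytic subunits of SAGA-type complexes, and is known best from the promoters of transcribed genes. In microglia, long stretches of H3K27ac mark the genes of the resident identity program, such as those bound by PU.1 (Spi1).

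H3K27ac lay over more of the genome in longer peaks, and H3K9ac lay at the ends of more genes. H3K9ac peaks covered 42.9, 44.1, 44.7 and 42.0 Mb in the 4 libraries, against 64.9, 65.4, 62.6 and 63.5 Mb for H3K27ac. The difference in peak number did not pass the test, with 45498 ± 2393 H3K9ac peaks and 48431 ± 1771 H3K27ac peaks (SD, n = 4 each; two-sided exact permutation test, p = 0.0857). Peaks were narrower for H3K9ac, with a median peak width of 657 ± 27 bp for H3K9ac and 866 ± 42.1 bp for H3K27ac. Peaks of 4 kb or more numbered 574 ± 19.7 in H3K9ac lists and 2219 ± 103 in H3K27ac lists. The longest peak of a list reached 15438 to 21425 bp for H3K9ac and 33770 to 45979 bp for H3K27ac. For covered length, median width, long peaks and longest peak the 4 libraries of each mark did not overlap, and the two-sided exact permutation p was 0.0286, the smallest that 4 against 4 libraries allow.

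Placed on the annotation, a peak within 1 kb of either end of a protein-coding gene was counted as at an end, and a peak over 5 kb from every such end as distal. Per library, H3K9ac had a peak at an end of 11499, 11621, 11632 and 11424 genes, and H3K27ac of 10638, 10717, 10546 and 10515 genes, out of 21631. Gene ends took 27.4% ± 1.18 of H3K9ac peaks and 23.7% ± 0.492 of H3K27ac peaks, and distal sites took 58.1% ± 0.934 and 62.1% ± 0.333 (H3K9ac first, SD, n = 4 each). Of the covered bases, 48.3% ± 0.643 were distal for H3K9ac and 56.3% ± 0.289 for H3K27ac. Each of these 4 measures separated the marks with no overlap (two-sided exact permutation test, p = 0.0286 each). No read counts came with the lists, so the depth of each library is unknown. The lowest local background implied by a list was 2.35 to 2.63 for H3K9ac and 2.39 to 2.75 for H3K27ac (exact permutation test, p = 0.886). It moves with depth but also with caller options and any control library, which are not given. These values therefore cannot show whether depth was equal. The median fold enrichment of a peak, the authors' own value, was 4.99 ± 0.0971 for H3K9ac and 5.61 ± 0.102 for H3K27ac (exact permutation test, p = 0.0286). The part of enrichment strength in the width difference was not tested.

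**Figure D1:**
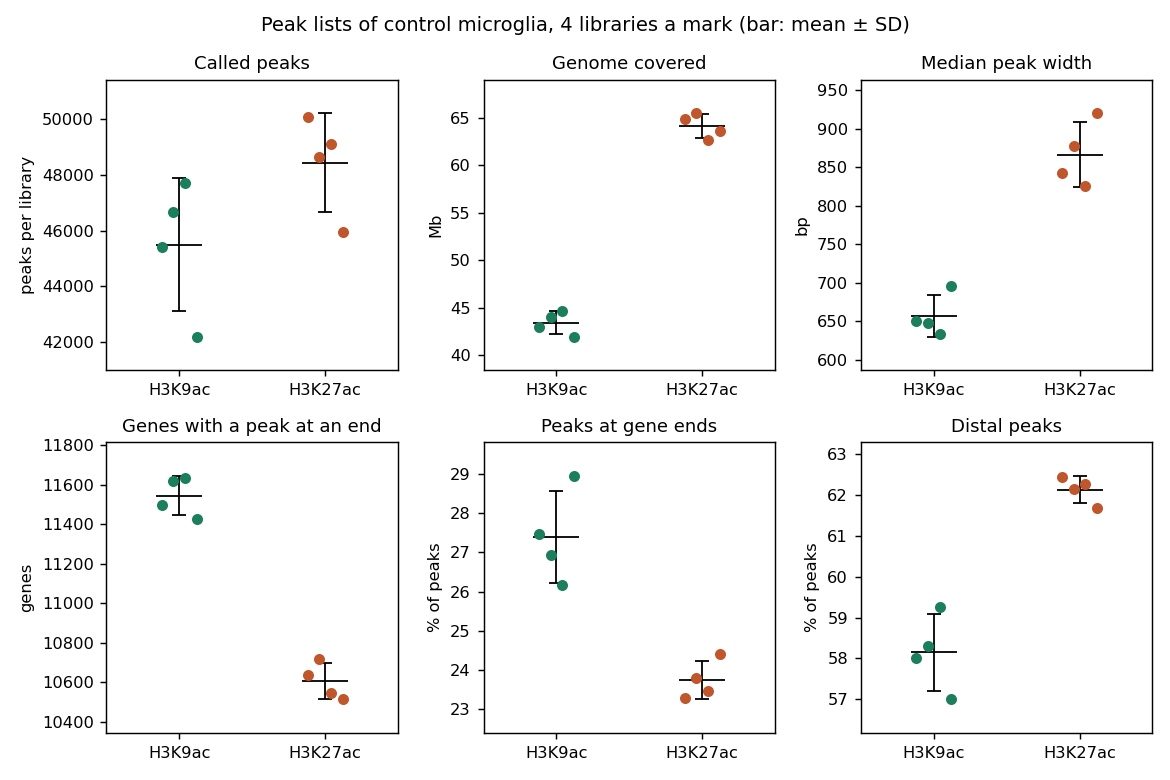
Each panel plots 1 value per library (points) for Ctrl H3K9ac, left, and Ctrl H3K27ac, right, with the mean and SD of 4 libraries; vertical axes do not start at 0. Peak numbers overlap between the marks, whereas covered Mb, median width, genes with a peak at an end and both percentages separate them without overlap.

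The marks shared most of their sites, and pairs across marks shared a smaller fraction of bases than any pair within a mark. The shared fraction of covered bases (bases in both lists over bases in either) was 0.635 to 0.727 between H3K9ac libraries, 0.717 to 0.808 between H3K27ac libraries and 0.503 to 0.515 over the 16 pairs with 1 library of each mark. In those 16 pairs, 76.4% to 83.5% of H3K9ac peaks met an H3K27ac peak, and 60.3% to 66.7% of H3K27ac peaks met an H3K9ac peak. Between libraries of the same mark, 73.2% to 86.2% of H3K9ac peaks and 81.3% to 91.5% of H3K27ac peaks met a peak. By this count H3K9ac peaks met H3K27ac lists about as often as other H3K9ac lists. The marks also differ in covered length (means of 43.4 and 64.1 Mb), which by itself limits the shared fraction across marks. At most 0.0653% of the peaks of any pair of libraries were identical, so no list was a copy of another. Replicates 1 and 4 were the closest pair within each mark, with a shared fraction of 0.727 for H3K9ac and 0.808 for H3K27ac. The next closest pairs stood at 0.658 and 0.738. Replicates 1 and 4 also had the most identical peaks within each mark (0.0450% and 0.0653%). The labels do not state whether these replicates are independent.

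Around the starts of genes that carried both marks, H3K9ac was the more frequent at 500 and 1000 bp into the gene. H3K27ac was the more frequent upstream and from 2000 bp into the gene. Over 6532 such genes with a single listed start, the start itself lay under a peak in 84.0% ± 0.902 of cases for H3K9ac and 83.3% ± 1.52 for H3K27ac (SD, n = 4 each; exact permutation test, p = 0.571). At 500 bp into the gene the shares were 84.7% ± 0.306 for H3K9ac and 78.4% ± 1.09 for H3K27ac, and at 1000 bp 44.1% ± 0.441 and 39.9% ± 0.603. On the upstream side at 1000 bp the order was opposite, with 23.7% ± 0.206 for H3K9ac and 29.6% ± 0.539 for H3K27ac. At 2000 bp into the gene H3K27ac was again the more frequent, with 12% ± 0.471 for H3K9ac and 15.8% ± 0.243 for H3K27ac. These 4 positions had an exact permutation p of 0.0286 each, the smallest the design allows.

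**Figure D2:**
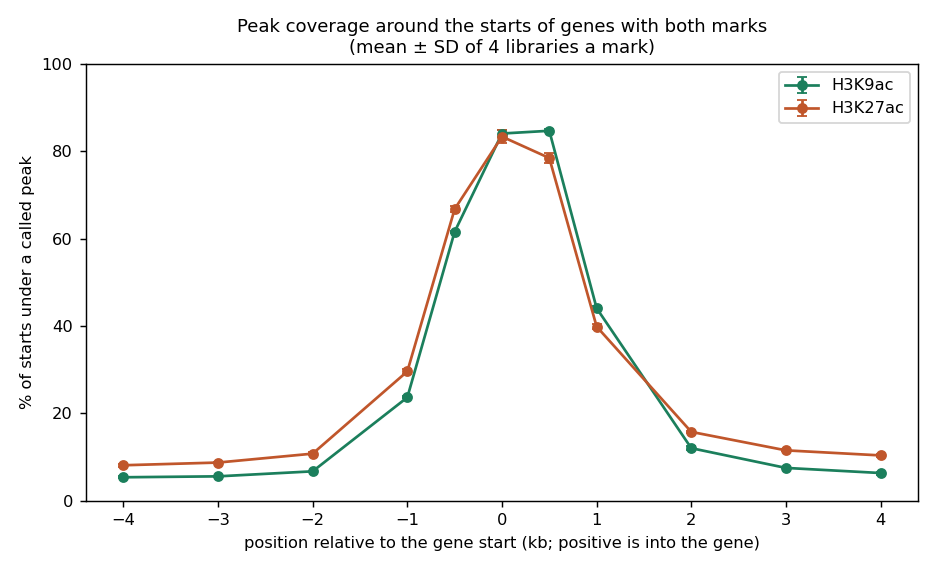
The plot gives the percent of 6532 gene starts under a called peak (vertical axis) by distance from the start in kb (horizontal axis, positive into the gene), as mean ± SD over 4 libraries of H3K9ac and of H3K27ac. The curves meet at the start, H3K9ac is higher at 0.5 and 1 kb into the gene, and H3K27ac is higher at every upstream position and from 2 kb onward.

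Of 21631 protein-coding genes, 9826 (45.4%) had a peak at an end in all 8 libraries and 9023 had none in any. H3K9ac alone, meaning a peak in all 4 H3K9ac libraries and in no H3K27ac library, was found at 477 genes, and H3K27ac alone at 57, which became 16 when listed starts took the place of gene ends. Just outside these limits, 181 genes had all 4 H3K9ac libraries and 1 H3K27ac library, and 60 had 1 H3K9ac library and all 4 of H3K27ac. With 3 libraries of the mark and none of the other there were 238 genes for H3K9ac and 52 for H3K27ac. The classes are defined by the same lists and are therefore described without a test.

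**Figure D3:**
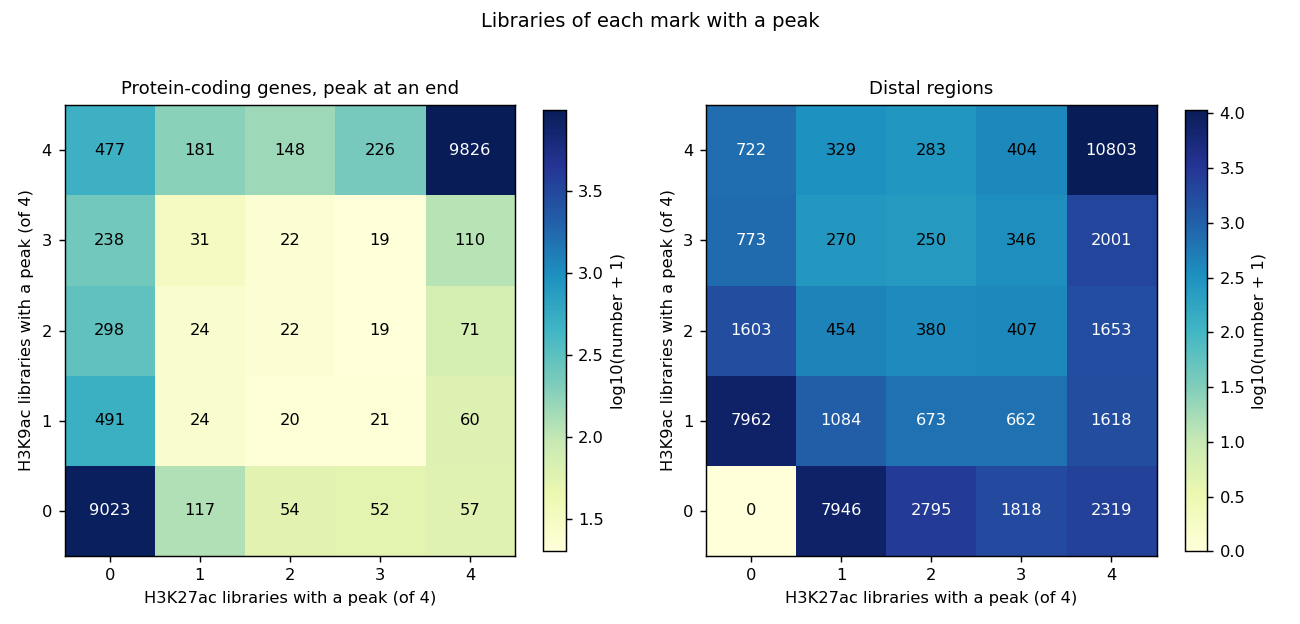
Each cell gives the number of protein-coding genes (left) or distal regions (right) with a peak in the stated number of H3K9ac libraries (vertical) and H3K27ac libraries (horizontal), coloured by log10(number + 1). Genes concentrate in the corners with 0 and with all 8 libraries and H3K9ac alone exceeds H3K27ac alone, while among distal regions H3K27ac alone exceeds H3K9ac alone.

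The H3K9ac alone genes carried short peaks. Their median coverage within 2.5 kb of either end was 0.652 to 0.705 kb per H3K9ac library, against 1.84 to 1.87 kb at genes with both marks. Ranked by p within its own list, the median peak at these ends stood at percentile 40.6 to 47.2, against 81.3 to 83.8 for H3K9ac peaks at genes with both marks. Of 365 H3K9ac alone genes with a start in the RefSeq promoter table, 333 (91.2%) had H3K9ac within 1 kb of a listed start in all 4 libraries. Elovl6, which elongates saturated fatty acids, had 2.12, 2.42, 2.08 and 2.32 kb of H3K9ac and 0 kb of H3K27ac in every library. The chemokine receptor gene Cxcr4 had 1.47, 1.5, 1.60 and 1.3 kb of H3K9ac and 0 kb of H3K27ac in all 4. Ppm1e, a protein phosphatase, had 1.98 ± 0.140 kb of H3K9ac and 0.230 ± 0.158 kb of H3K27ac, which lay beyond 1 kb from its ends. Further members with no H3K27ac within 2.5 kb were the plectin gene Plec (1.63 ± 0.120 kb of H3K9ac), the GTPase gene Rragd of amino acid sensing (1.43 ± 0.130 kb), the protease inhibitor gene Reck (1.16 ± 0.0203 kb), the nucleotide kinase gene Cmpk2 (1.14 ± 0.0315 kb) and Gkap1 (1.48 ± 0.0389 kb). Ankrd33b had 2.0 ± 0.453 kb of H3K9ac and none of H3K27ac. Sv2c, a synaptic vesicle protein gene, Nfatc1, a calcium-responsive transcription factor gene, and Ppargc1b, a coactivator gene of mitochondrial metabolism, had 2.15 ± 0.316, 1.77 ± 0.104 and 1.99 ± 0.195 kb of H3K9ac, with 0.969 ± 0.445, 0.572 ± 0.334 and 0.582 ± 0.253 kb of H3K27ac between 1 and 2.5 kb from their ends. The homeodomain gene Irx5 had 1.81 ± 0.212 kb of H3K9ac and 0.968 ± 0.00655 kb of H3K27ac, likewise beyond 1 kb. Ntn3, a netrin gene, and Trerf1 had 1.92 ± 0.0842 and 1.90 ± 0.469 kb of H3K9ac, with 0.882 ± 0.136 and 0.597 ± 0.130 kb of H3K27ac. Marveld2, a tight junction gene and the tenth member by length, did not pass the test on coverage (1.75 ± 0.267 and 1.41 ± 0.0676 kb, limma adjusted p = 0.0642).

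The class also held 4 genes named here after their values were seen. None of 24 cell cycle genes had H3K9ac alone, beside 2.21% of all genes. Myb, a transcription factor gene of blood progenitors, had 0.776, 0.830, 1.12 and 0.936 kb of H3K9ac. The cytokine receptor gene Flt3 had 0.490 ± 0.104 kb, the Myc family gene Mycn 0.463 ± 0.178 kb and the telomerase gene Tert 0.488 ± 0.101 kb. H3K27ac stood at 0 kb in all 4 libraries at each of these 4 genes. At Flt3, Mycn and Tert these lengths lie below the median H3K9ac peak width of 657 bp and toward the shortest peaks that the lists hold, 262 to 271 bp in H3K9ac libraries and 267 to 284 bp in H3K27ac libraries.

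The H3K27ac alone class was small, and part of it came from the use of outer gene ends. Of its 57 genes, 46 had a listed start, and at 17 of these H3K9ac was present within 1 kb of a listed start in all 4 libraries, while H3K27ac was present there in all 4 at 25 (54.3%). Only 7 carried H3K27ac alone at their listed starts. Cd33, a sialic acid receptor gene of microglia, had 2.63, 4.18, 4.43 and 2.58 kb of H3K27ac at its outer ends, against 0.286 kb of H3K9ac in replicate 1 and 0 kb in the other H3K9ac libraries. Around its listed start, however, Cd33 had 3.34 ± 0.259 kb of H3K9ac and 4.56 ± 0.147 kb of H3K27ac. Mef2a, a transcription factor gene, had 1.2 ± 0.237 kb of H3K9ac and 3.33 ± 0.669 kb of H3K27ac at its outer ends, and 4.79 ± 0.237 and 5.0 ± 0 kb around its listed start, where the window of 5 kb was filled by H3K27ac. Tmem176b had no H3K9ac and 2.65 ± 0.485 kb of H3K27ac at its outer ends, and 2.73 ± 0.308 and 2.54 ± 0.0956 kb around its listed starts. Clmp and Rcsd1 had 0.836 ± 0.180 and 1.32 ± 0.229 kb of H3K9ac beyond 1 kb from their ends, and 3.33 ± 0.275 and 3.09 ± 0.461 kb of H3K27ac, and the receptor genes Gabrr2 and Tmigd3 had 0.330 ± 0.142 and 0.213 ± 0.325 kb of H3K9ac and 2.38 ± 0.721 and 2.2 ± 0.325 kb of H3K27ac. Members with no H3K9ac in either window included the receptor gene Tlr11 (1.59, 1.38, 1.59 and 1.47 kb of H3K27ac), the macrophage elastase gene Mmp12 (0.854, 1.60, 0.747 and 0.819 kb) and the cell adhesion gene Amigo3 (1.84 ± 0.222 kb). Gm10406, Gm3476, Gm3685, Gm5795 and Gm8279, all on chromosome 14, are predicted genes of a repeated family whose reads could be split between copies, so their membership is uncertain.

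CpG content of promoters is shown here by the 3 members of each class with the longest coverage whose listed start had the class's mark alone (predicted Gm genes left out). The sequences are from RefSeq (GRCm38.p6), 250 bases before to 50 after the start, 5′ to 3′ on the gene's strand, with each CpG dinucleotide in capitals. H3K9ac alone:
Elovl6: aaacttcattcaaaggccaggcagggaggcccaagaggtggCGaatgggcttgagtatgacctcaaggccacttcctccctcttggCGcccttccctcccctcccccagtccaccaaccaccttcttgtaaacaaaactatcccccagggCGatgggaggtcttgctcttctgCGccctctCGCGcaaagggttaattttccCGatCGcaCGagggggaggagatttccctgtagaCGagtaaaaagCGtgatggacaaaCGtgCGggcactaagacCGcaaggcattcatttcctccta
Ankrd33b: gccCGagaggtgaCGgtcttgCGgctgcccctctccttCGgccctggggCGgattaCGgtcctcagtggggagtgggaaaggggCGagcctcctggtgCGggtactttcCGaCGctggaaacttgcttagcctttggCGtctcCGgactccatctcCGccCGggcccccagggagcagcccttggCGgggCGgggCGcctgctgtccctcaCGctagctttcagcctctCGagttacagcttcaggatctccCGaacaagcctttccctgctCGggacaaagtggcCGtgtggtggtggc
Ppm1e: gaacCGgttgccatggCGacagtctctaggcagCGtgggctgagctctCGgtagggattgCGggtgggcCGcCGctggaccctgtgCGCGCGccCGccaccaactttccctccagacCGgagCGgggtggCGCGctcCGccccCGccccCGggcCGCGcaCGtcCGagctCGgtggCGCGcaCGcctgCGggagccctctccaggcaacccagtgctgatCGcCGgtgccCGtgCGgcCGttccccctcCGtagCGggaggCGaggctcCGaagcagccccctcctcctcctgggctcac
H3K27ac alone:
Amigo3: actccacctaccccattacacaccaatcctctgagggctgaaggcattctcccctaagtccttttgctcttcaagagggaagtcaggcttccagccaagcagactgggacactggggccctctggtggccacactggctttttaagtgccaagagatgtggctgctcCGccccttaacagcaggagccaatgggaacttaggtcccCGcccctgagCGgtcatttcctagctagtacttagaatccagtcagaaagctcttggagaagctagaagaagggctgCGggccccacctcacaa
Tlr11: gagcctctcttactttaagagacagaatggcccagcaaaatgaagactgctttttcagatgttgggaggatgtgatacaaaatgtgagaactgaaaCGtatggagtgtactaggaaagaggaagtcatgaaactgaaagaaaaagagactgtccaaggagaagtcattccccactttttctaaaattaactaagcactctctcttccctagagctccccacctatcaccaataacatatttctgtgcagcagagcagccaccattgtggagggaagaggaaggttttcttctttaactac
Mmp12: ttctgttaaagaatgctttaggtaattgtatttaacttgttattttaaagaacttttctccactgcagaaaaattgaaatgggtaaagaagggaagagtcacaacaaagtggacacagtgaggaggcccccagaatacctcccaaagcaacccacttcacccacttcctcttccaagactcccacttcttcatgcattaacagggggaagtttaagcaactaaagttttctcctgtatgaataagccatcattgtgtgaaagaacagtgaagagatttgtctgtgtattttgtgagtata
These windows lie at chr3:129532136-129532435 (Elovl6, plus strand), chr15:31367710-31368009 (Ankrd33b, minus strand) and chr11:87358945-87359244 (Ppm1e, minus strand) for the H3K9ac alone genes, and at chr9:108052909-108053208 (Amigo3, plus strand), chr14:50357664-50357963 (Tlr11, plus strand) and chr9:7344147-7344446 (Mmp12, plus strand) for the H3K27ac alone genes. The H3K9ac alone promoters hold 14, 22 and 36 CpGs, and the H3K27ac alone promoters 4, 1 and 0. Over all members with a listed start, the median was 17 CpGs at the listed starts of 365 H3K9ac alone genes and 6.5 at those of 46 H3K27ac alone genes, many of which carry H3K9ac at the start or lack H3K27ac there, beside 21 in 8022 promoters with both marks, 4 in 7104 with no peak and 14 in all 17274. Fewer than 10 CpGs were present at 23.3% of H3K9ac alone and 52.2% of H3K27ac alone genes, against 42.2% of all. Over members whose listed starts carried the class's mark alone, a subset taken after seeing the data, the median was 18 CpGs in 316 H3K9ac alone promoters and 2 in 7 H3K27ac alone promoters. The letters GGAAGT, the core of the ETS motif that PU.1 and its relatives bind, were found on either strand at 16.4% of H3K9ac alone and 21.7% of H3K27ac alone genes, beside 31.4% of promoters with both marks and 25.4% of all. GAGGAAG, the core with its 5′ flank, shares letters with that motif and was found in 11% of H3K9ac alone, 19.6% of H3K27ac alone and 13.1% of all promoters. With 46 listed starts in the H3K27ac alone class, of which 7 carried that mark alone, these shares are coarse and describe the genes rather than promoters with H3K27ac alone.

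H3K4me3, the trimethylation of lysine 4 that marks promoters, was measured in separate libraries of the same control group and split the classes at gene ends. At genes with H3K9ac alone, 81.3%, 76.9%, 75.3% and 78.6% had a Ctrl H3K4me3 peak at an end in the 4 libraries. At genes with H3K27ac alone these shares were 1.75%, 5.26%, 0% and 1.75%, that is 0 to 3 of 57 genes. These shares are at gene ends; at listed starts they lay closer together, with Ctrl H3K4me3 within 1 kb at 72.1% to 77.3% of 365 H3K9ac alone genes and 34.8% to 39.1% of 46 H3K27ac alone genes. Among the members whose listed starts carried the class's mark alone, the shares were 76.6% to 82.3% of 316 and 0% of 7. Genes with both marks stood at 86.7% to 89.6%, genes with neither at 2.45% to 3.01%, and all genes at 46.2% to 48.1%. The lists of the FGR group, which played no part in defining the classes, gave a further reading. An FGR H3K9ac peak was present at 95% to 97.3% of H3K9ac alone genes and an FGR H3K27ac peak at 4.4% to 19.1% of them, beside 61.3% to 66.9% and 43.9% to 48.1% of all genes. At H3K27ac alone genes the FGR libraries had H3K9ac at 35.1% to 47.4% and H3K27ac at 43.9% to 70.2%, a range that begins at the share over all genes. At genes with no peak in any of the 8 lists, FGR H3K9ac was present at 17.8% to 27.8%.

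Away from gene ends the balance turned to H3K27ac. The 8 lists merged into 47555 distal regions, of which 10803 (22.7%) had a peak in all 8 libraries, 722 (1.52%) had H3K9ac alone and 2319 (4.88%) had H3K27ac alone. When at least 50% of a region had to be covered, 3326 had both marks and 5231 had H3K27ac alone, so that H3K27ac alone became the larger class, and at a −log10 q of at least 5 H3K9ac alone held 360. Next to the limits, 329 regions had all 4 H3K9ac libraries and 1 of H3K27ac, and 1618 had 1 H3K9ac library and all 4 of H3K27ac. Regions with both marks were long, with a median of 2048 bp, against 695 bp for H3K9ac alone and 988 bp for H3K27ac alone. Regions within a gene body made up 46.3% of H3K9ac alone and 66.1% of H3K27ac alone, beside 67.7% of all distal regions. In the regions with both marks, H3K27ac filled more of the sequence the longer the region was. The regions are merged from the same lists, so the longer H3K27ac peaks help set their length and this rise is partly built in. Under 2 kb, H3K9ac covered 55.3% to 56.6% and H3K27ac 75.2% to 78.2% of the summed length of 5228 regions. Between 2 and 5 kb they were 48.2% to 49.9% and 82.8% to 85.5% over 4441 regions, and between 5 and 10 kb 52.0% to 53.5% and 88.3% to 90.7% over 962. From 10 kb on, in 172 regions, the shares were 55.9% to 57.3% for H3K9ac and 92.1% to 93.8% for H3K27ac.

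H3K4me3 also set the distal classes apart. It lay at 32.8% to 40.0% of H3K9ac alone regions and 0.690% to 0.776% of H3K27ac alone regions, against 18.8% to 23.2% of regions with both and 5.98% to 7.41% of all distal regions. Part of the H3K9ac alone class lay near other annotated positions. Of its regions, 20.1% were within 1 kb of an end of a noncoding gene or of a listed start of any gene, against 5.0% of H3K27ac alone regions and 7.87% of all. An end of a noncoding gene was near 95 of its regions and a listed start near 94. The listed starts can include inner starts of protein-coding genes, and an end of a noncoding gene need not be its start. Among the 577 H3K9ac alone regions away from such positions, 89 (15.4%) had H3K4me3 in all 4 libraries. Among 2203 such H3K27ac alone regions it was 13 (0.590%), and among 43811 of all regions 819 (1.87%). H3K9me3, the mark of heterochromatin, met 2.77%, 2.08%, 2.35% and 0% of H3K9ac alone regions and 31.8%, 29.0%, 21.0% and 0.690% of H3K27ac alone regions in the 4 Ctrl H3K9me3 lists, beside 16.1%, 14.6%, 9.87% and 0.0862% of all. The fourth of these lists is short, which its shares show. Regions with both marks were the longest class and H3K9ac alone regions the shortest (medians of 2048 and 695 bp, with 988 bp for H3K27ac alone). The part of length in these differences was not tested.

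**Figure D4:**
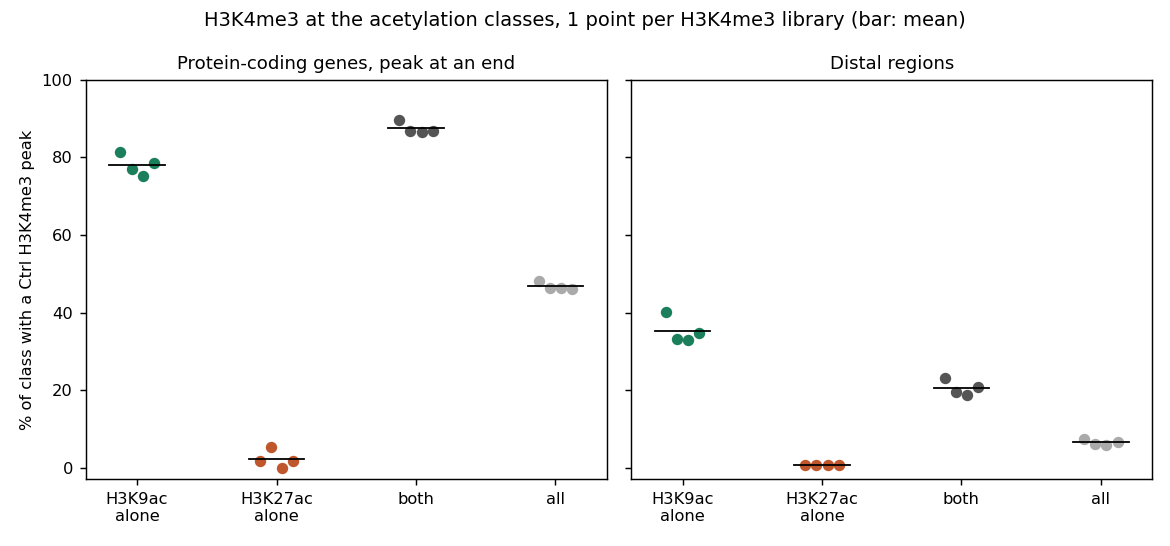
Points give, for each of 4 Ctrl H3K4me3 libraries, the percent of a class with an H3K4me3 peak, for protein-coding genes (left) and distal regions (right); bars are means. H3K9ac alone sits at 75.3% to 81.3% of genes and 32.8% to 40.0% of distal regions, H3K27ac alone at 0% to 5.26% and 0.690% to 0.776%.

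On chromosome X the marks parted at distal sites and not at gene ends. X held 1.12% ± 0.0205 of distal H3K9ac peaks and 1.90% ± 0.0587 of distal H3K27ac peaks (SD, n = 4 each), or 297 ± 16.1 and 570 ± 8.5 peaks per library (exact permutation test, p = 0.0286 for each). Of the peaks at gene ends, X held 2.69% ± 0.0313 for H3K9ac and 2.69% ± 0.0400 for H3K27ac (exact permutation test, p = 0.857). Among distal classes, 8 of 722 H3K9ac alone regions (1.11%) and 116 of 2319 H3K27ac alone regions (5.0%) were on X, beside 1.56% of all distal regions. Both marks came from mice of the same labelled group, and the labels used here give no sex.

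The longest H3K9ac alone region, at chr13:6606637-6612965 inside Pfkp, a phosphofructokinase gene, had 3.87, 3.66, 4.63 and 4.15 kb of H3K9ac and 0 kb of H3K27ac in every library. The next, at chr7:141506108-141508871 inside Chid1, had 2.42 ± 0.293 kb of H3K9ac and again none of H3K27ac. The other 3 of the 5 longest, in Mpp7, in Elavl1 and near Vmn1r223, had 1.14, 0.939 and 1.09 kb of H3K9ac on average and none of H3K27ac. H3K27ac alone was led by a region at chr3:9788334-9793491 inside Pag1, with 3.28, 3.90, 2.24 and 2.85 kb of H3K27ac, and one at chr13:83539090-83543073 inside Mef2c, a transcription factor gene, with 3.60, 3.62, 3.01 and 3.54 kb, all with 0 kb of H3K9ac. Further ones lay inside Rap1a, Entpd1, the ectonucleotidase gene of microglia, and Exoc6b, with 2.29 ± 0.412, 1.94 ± 0.467 and 2.8 ± 0.350 kb of H3K27ac. The longest region with both marks, at chr7:80031478-80085350 inside Zfp710, had 26.5 ± 1.24 kb of H3K9ac and 52.0 ± 0.578 kb of H3K27ac.

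Per region, limma with Benjamini-Hochberg adjustment over 31647 distal regions with a peak in at least 2 libraries called 1627 (5.14%) longer in H3K9ac and 14902 (47.1%) longer in H3K27ac, with a median difference of -0.324 kb. The libraries of the marks did not overlap at 3.97% of these regions with H3K9ac longer and at 40.6% with H3K27ac longer. Regions that entered the test through 1 mark alone could differ in that direction only. For H3K27ac, 2795, 1818 and 2319 such regions had a peak in 2, 3 and 4 libraries. For H3K9ac these were 1603, 773 and 722. Quantile normalization, which gives each library the same set of lengths and so removes the overall difference in width, called 4938 and 5060. With peaks of −log10 q of at least 5, 931 were longer in H3K9ac. Among the calls, H3K9ac longer thus made up 9.84% as deposited and 49.4% after quantile normalization. The smallest p values for H3K27ac longer were at regions inside Slco2b1 (chr7:99671754-99694511, 10.2 ± 0.521 kb of H3K9ac and 21.9 ± 0.261 kb of H3K27ac), near the chemokine receptor gene Ccr1 (chr9:123939785-123956042, 8.50 ± 0.163 and 15.7 ± 0.278 kb), in Zfp710, in Frmd4a and in 0610040J01Rik.

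For genes, kb under peaks within 2.5 kb of either end were compared in the same way over 12844 genes, and H3K9ac was longer at 2275 (17.7%) and H3K27ac at 3433 (26.7%) at an adjusted p under 0.05 (limma). The libraries did not overlap at 16.9% of genes with H3K9ac longer and at 24.9% with H3K27ac longer. Genes with peaks of 1 mark alone in the window could likewise differ in that direction only. The median over these genes was -0.052 kb. Quantile normalization gave 2458 and 2153, so that H3K9ac longer made up 53.3% of the calls instead of 39.9%, or 19.1% and 16.8% of the genes tested. Genes longer in H3K27ac numbered 2215 with a window of 1 kb and 2195 at listed starts. The window holds at most 10 kb, so long domains are cut short in it. Neighbouring genes can share a window, as Spi1 did with Mybpc3, Csf1r with Hmgxb3, Plk1 with Ern2, Ccnb1 with Cenph, Plec with Parp10 and Tmem176b with Tmem176a.

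Genes of the resident microglial program carried longer H3K27ac than H3K9ac almost throughout. Of 30 homeostatic genes tested, none was longer in H3K9ac and 27 were longer in H3K27ac (background 26.7%), with median levels of 4.71 kb of H3K9ac and 7.23 kb of H3K27ac and a median difference of -1.97 kb; after quantile normalization 5 were longer in H3K9ac and 15 in H3K27ac. Each had H3K9ac or H3K27ac at an end, and 26 had both marks in all 8 libraries, as had 45.4% of all genes. P2ry12, the ADP receptor of resting microglia (chr3:59216271-59262985), had 7.38, 6.78, 7.21 and 7.1 kb of H3K9ac and 9.84, 9.39, 9.55 and 10 kb of H3K27ac (difference -2.58 kb, SE 0.167, limma adjusted p = 9.58e-06). Cx3cr1, the fractalkine receptor gene, had 5.95, 6.26, 7.15 and 6.04 kb against 9.83, 9.60, 9.64 and 10 kb, and Tmem119, whose locus carries the reporter, 4.72, 3.62, 4.08 and 4.10 kb against 7.17, 7.58, 6.43 and 7.27 kb. The libraries of the marks did not overlap at any of these 3 genes. The largest differences were at Selplg, a P-selectin ligand gene (2.79 ± 0.656 and 8.32 ± 0.618 kb, H3K9ac first), Siglech, a microglial lectin gene (4.64 ± 0.799 and 9.66 ± 0.244 kb), and Fcrls, an Fc receptor-like gene (4.44 ± 0.269 and 8.90 ± 0.360 kb). Csf1r, the receptor gene for the survival factors of microglia, had 4.91 ± 0.359 and 8.38 ± 0.535 kb. Gpr34, a lysophosphatidylserine receptor gene on X, was the most uneven, with 0.394, 1.09, 0.275 and 0.170 kb of H3K9ac and 4.72, 4.18, 4.42 and 4.34 kb of H3K27ac. Not past the threshold were Ltc4s, a leukotriene synthase gene (4.85 ± 0.305 and 4.99 ± 0.332 kb, turned after quantile normalization), Entpd1 (0.169 ± 0.201 and 0.501 ± 0.226 kb) and the UDP receptor gene P2ry6, with 0.292 kb of H3K9ac and 0.267 kb of H3K27ac in replicate 3 alone.

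At P2ry12 and Cx3cr1 the difference lay away from the gene start, where both marks filled or nearly filled the window. Within 2.5 kb of its listed start P2ry12 had 5.0 ± 0 kb of H3K9ac and 5.0 ± 0 kb of H3K27ac, and Cx3cr1 4.89 ± 0.173 and 5.0 ± 0 kb. Over the 22 homeostatic genes tested with a listed start, counting the start alone, none was longer in H3K9ac and 15 in H3K27ac, with a median difference of -0.514 kb. At Siglech and Fcrls the start differed too, with 3.19 ± 0.383 and 5.0 ± 0 kb at Siglech and 4.37 ± 0.350 and 5.0 ± 0 kb at Fcrls. Distal acetylation varied among these loci. Within 50 kb of P2ry12, distal regions held 5.53, 6.30, 5.31 and 5.31 kb of H3K9ac and 17.5, 16.2, 14.9 and 18.6 kb of H3K27ac, and within 50 kb of Siglech 3.25 ± 0.233 and 10.8 ± 0.867 kb. It was closer to even near Selplg (1.45 ± 0.484 and 1.91 ± 0.325 kb), Csf1r (0.385 ± 0.177 and 0.493 ± 0.244 kb) and Cx3cr1 (1.0 ± 0.250 and 0.845 ± 0.121 kb). Of 196 distal regions whose nearest gene was on the homeostatic list, 44 (22.4%) had both marks in all libraries, 0 had H3K9ac alone and 15 (7.65%) had H3K27ac alone, beside 22.7%, 1.52% and 4.88% of all distal regions.

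**Figure D5:**
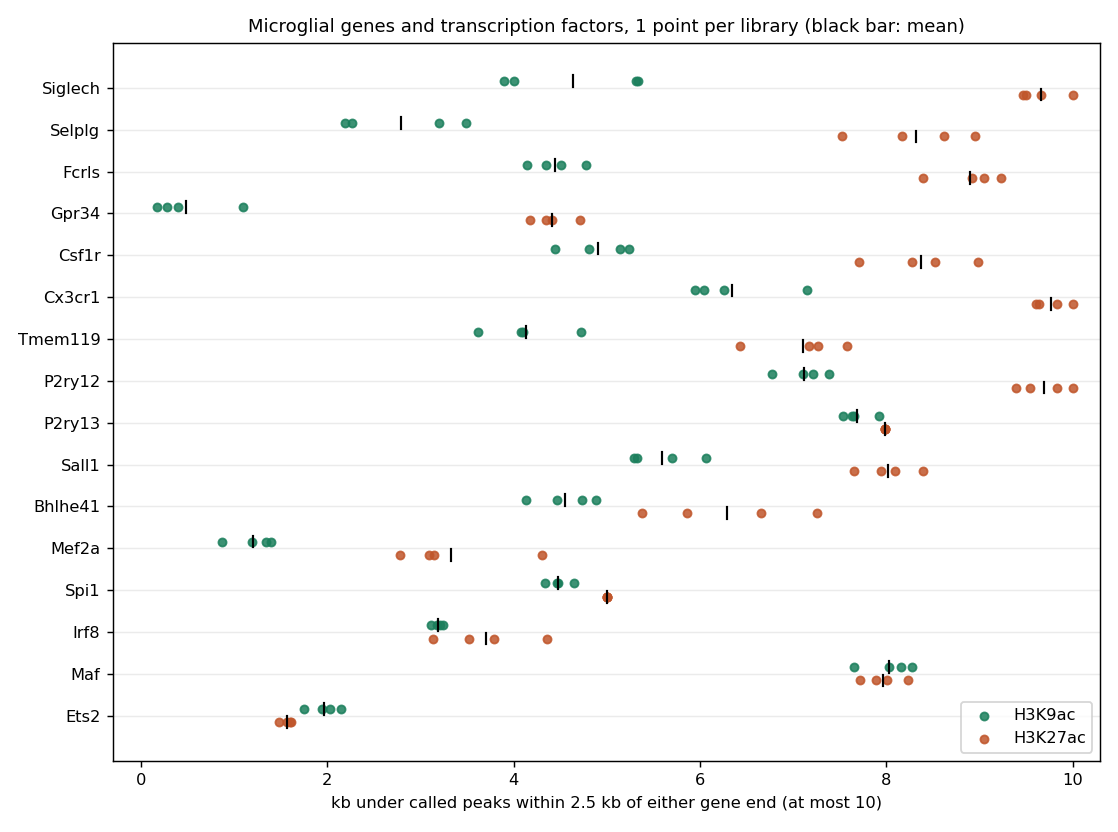
Each point is the covered length in 1 library, in kb, over the windows of 2.5 kb around both gene ends (horizontal axis, at most 10 kb), with H3K9ac above H3K27ac for each gene and a black bar at the mean. The upper 8 genes, down to P2ry12, separate with H3K27ac longer by 2.58 kb or more, while Maf and Irf8 overlap and Ets2 lies higher in H3K9ac.

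Transcription factors of microglia were mixed. Of 25 tested, 2 (8%) were longer in H3K9ac and 6 (24%) in H3K27ac, beside 17.7% and 26.7% of all genes, with a median difference of -0.138 kb; after quantile normalization the balance turned, with 11 longer in H3K9ac and 3 in H3K27ac. Sall1, the factor of microglial identity, had 6.07, 5.70, 5.32 and 5.29 kb of H3K9ac and 8.09, 7.66, 8.40 and 7.94 kb of H3K27ac, with no overlap (limma adjusted p = 3.22e-05); around its listed starts alone it had 6.23 ± 0.137 and 6.30 ± 0 kb. Bhlhe41, a repressor of the clock family, and Ikzf1, a lymphoid and myeloid factor, were also longer in H3K27ac (4.56 ± 0.332 and 6.29 ± 0.835 kb, then 2.2 ± 0.147 and 3.29 ± 0.518 kb). At Spi1, the PU.1 gene, H3K27ac filled 5.0 kb in every library and H3K9ac 4.64, 4.47, 4.47 and 4.33 kb, a difference that changed sign after quantile normalization. Irf8, its partner, had 3.19 ± 0.0540 and 3.70 ± 0.513 kb and did not pass the threshold (limma adjusted p = 0.0835), although distal regions within 50 kb held 11.7 ± 1.38 kb of H3K9ac and 26.6 ± 1.5 kb of H3K27ac. Ets2, an ETS family factor, was longer in H3K9ac (1.97 ± 0.170 and 1.56 ± 0.0574 kb), while Maf did not pass the threshold (8.03 ± 0.268 and 7.96 ± 0.216 kb).

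Immune effector genes also leaned to H3K27ac as deposited, beside 17.7% and 26.7% of all genes. In the inflammatory response list 1 of 26 tested genes was longer in H3K9ac and 19 (73.1%) in H3K27ac. Among complement and phagocytosis genes these were 0 and 17 (77.3%) of 22, and among lysosome genes 0 and 15 (57.7%) of 26. After quantile normalization the pairs were 4 and 5, 4 and 8, and 3 and 7. As shares these were 15.4% and 19.2%, 18.2% and 36.4%, and 11.5% and 26.9%, beside 19.1% and 16.8% of all genes. The inflammatory list then stood near the shares over all genes. The cytokine gene Il1a had 5.07 ± 0.214 kb of H3K9ac and 7.93 ± 0.497 kb of H3K27ac, and the receptor genes Tlr2 and Tlr9 had 3.23 ± 0.393 and 4.82 ± 0.122 kb and 4.01 ± 0.525 and 5.94 ± 0.668 kb. Tnf had 2.29 ± 0.175 and 2.45 ± 0.0995 kb and did not pass (limma adjusted p = 0.268). Il1b passed narrowly, with 1.61, 0.827, 2.41 and 2.46 kb of H3K9ac and 2.98, 2.68, 2.56 and 2.95 kb of H3K27ac (limma adjusted p = 0.0392), and lost the call, at adjusted p up to 0.0949, when any of 6 of the 8 libraries was left out. The exception was Ptgs2, the inducible prostaglandin synthase gene, with 0.789, 0.680, 0.770 and 0.693 kb of H3K9ac and H3K27ac in replicate 2 alone (0.336 kb). The anaphylatoxin receptor gene C5ar1 (3.72 ± 0.321 and 6.43 ± 0.485 kb), the Fc receptor genes Fcgr3 (1.38 ± 0.481 and 3.89 ± 0.550 kb) and Fcgr1 (3.70 ± 0.556 and 5.81 ± 0.632 kb), the engulfment receptor gene Mertk (5.28 ± 0.0995 and 7.21 ± 0.206 kb, but 3.31 ± 0.280 and 3.27 ± 0.210 kb at its listed start, limma adjusted p = 0.859) and the cathepsin gene Ctss (3.25 ± 0.294 and 5.37 ± 0.191 kb) were longer in H3K27ac.

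Genes of disease-associated microglia, a state described around amyloid plaques, split. Of 24 tested, 4 (16.7%) were longer in H3K9ac and 13 (54.2%) in H3K27ac, beside 17.7% and 26.7% of all genes. After quantile normalization these were 7 (29.2%) and 9 (37.5%), beside 19.1% and 16.8%. B2m, which makes the invariant MHC class I chain, had 4.14 ± 0.551 kb of H3K9ac and 7.97 ± 0.189 kb of H3K27ac, and the cathepsin genes Ctsd and Ctsb had 6.90 ± 0.956 and 9.82 ± 0.0435 kb and 3.02 ± 0.430 and 4.98 ± 0.538 kb. The lipoprotein lipase gene Lpl was longer in H3K9ac, with 2.61, 2.69, 3.05 and 2.98 kb against 1.29, 1.09, 1.09 and 1.38 kb of H3K27ac. So were the growth factor genes Igf1 (2.65, 2.22, 2.22 and 1.89 kb against 0.274, 0.928, 0.853 and 0.514 kb) and Csf1 (2.62 ± 0.323 and 1.78 ± 0.265 kb). Apoe, a lipid carrier gene, did not pass (2.39 ± 0.319 and 2.81 ± 0.145 kb, limma adjusted p = 0.0577).

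Genes of cell division were called in both directions. Of 24 cell cycle genes tested, 7 (29.2%) were longer in H3K9ac and 5 (20.8%) in H3K27ac, beside 17.7% and 26.7% of all genes, with a median difference of -0.034 kb. After quantile normalization the counts were again 7 and 5, beside 19.1% and 16.8% of all genes. The mitotic kinase gene Plk1 had 0.900, 1.58, 1.55 and 0.851 kb of H3K9ac and H3K27ac in replicate 3 alone (0.267 kb). Cyclin B1 (Ccnb1) had 1.53, 1.72, 1.09 and 0.545 kb against 0.079, 0, 0.304 and 0.079 kb, and the proliferation antigen gene Mki67 1.51, 1.05, 1.72 and 1.39 kb against 0.915, 0.368, 0.528 and 0 kb. Aurka, Top2a, Ccne1 and Ccnd2 were the others (1.90 ± 0.186 and 1.03 ± 0.117, 1.09 ± 0.0796 and 0.611 ± 0.176, 0.806 ± 0.135 and 0.444 ± 0.0362, and 0.291 ± 0.0485 and 0 ± 0 kb). Cdk2 was the most unequal in the other direction, with 3.115 ± 0.252 and 4.39 ± 0.261 kb. A mark in a small share of the cells cannot be told apart here from a weak mark in all of them.

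Interferon response genes stood near the shares over all genes. Of 20 tested, 4 (20%) were longer in H3K9ac and 6 (30%) in H3K27ac, beside 17.7% and 26.7% (3 and 2 after quantile normalization). The receptor genes Ifngr1 and Ifnar1 had 3.76 ± 0.181 and 6.98 ± 0.633 kb and 1.92 ± 0.0937 and 3.53 ± 0.0696 kb, H3K9ac first. Ifnar2 had 4.71 ± 0.193 and 5.65 ± 0.215 kb, with the sign turned after quantile normalization. The induced genes Usp18 and Oasl2, both longer in H3K9ac, had 1.57 ± 0.103 and 0.736 ± 0.328 kb and 0.593 ± 0.179 and 0 ± 0 kb.

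All 20 listed acetyltransferase and partner genes had both marks at an end in all 8 libraries, as did 17 of 21 acetyl-lysine readers and 45.4% of all genes. Of the 20, 1 (5%) was longer in H3K9ac and 9 (45%) in H3K27ac, beside 17.7% and 26.7% of all genes. The balance depended on the window and scaling. It was 1 (5%) and 3 (15%) after quantile normalization, beside 19.1% and 16.8% of all genes. With a 1 kb window it was 2 and 0, beside 17.3% and 18.5% of all genes. At listed starts it was 3 and 2 of 17, beside 20.3% and 21.9%. The largest differences were at Kat6a (3.09 ± 0.435 and 4.74 ± 0.0842 kb), the coactivator gene Ncoa3 (2.17 ± 0.166 and 3.33 ± 0.381 kb) and Kat5 (3.57 ± 0.466 and 4.67 ± 0.246 kb), and the adaptor gene Tada2b was longer in H3K9ac (1.65 ± 0.144 and 0.912 ± 0.267 kb). The H3K27 writers Ep300 and Crebbp had 3.52 ± 0.0970 and 3.92 ± 0.399 kb and 1.61 ± 0.218 and 1.49 ± 0.220 kb, neither past the threshold. The H3K9 writer Kat2a had 2.0 ± 0.196 and 2.60 ± 0.497 kb (limma adjusted p = 0.0563), and Kat2b 2.13 ± 0.285 and 2.73 ± 0.409 kb (limma adjusted p = 0.0468), a call that was lost, at adjusted p up to 0.114, when any of 6 of the 8 libraries was left out. Acetyl readers were longer in H3K9ac at 4 of 19 genes (21.1%) and in H3K27ac at 7 (36.8%), beside 17.7% and 26.7% of all genes. After quantile normalization these were 8 (42.1%) and 3 (15.8%), beside 19.1% and 16.8%. The called readers included Mllt3, a YEATS domain gene (1.43 ± 0.314 and 0.341 ± 0.246 kb), and the remodeller gene Smarca4 (2.17 ± 0.154 and 3.37 ± 0.525 kb). Yeats4 was called too (3.81 ± 0.161 and 5.59 ± 0.266 kb), but had 1.2 ± 0.125 and 1.01 ± 0.139 kb at its listed start (limma adjusted p = 0.149). Deacetylases and corepressors were longer in H3K9ac at 1 of 18 and in H3K27ac at 5 (27.8%, beside 26.7% of all genes; 3 and 2 after quantile normalization), among them the sirtuin genes Sirt2 (3.23 ± 0.424 and 4.23 ± 0.287 kb) and Sirt7 (1.38 ± 0.130 and 2.37 ± 0.479 kb).

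Markers of other cells that a hippocampal preparation could hold were marked in part. None of the 8 libraries had a peak at an end of 10 of 14 neuron genes, 6 of 12 astrocyte, 7 of 12 oligodendrocyte lineage, 7 of 12 endothelial and mural, 9 of 14 lymphocyte and neutrophil, 6 of 10 monocyte and 4 of 11 border-associated macrophage genes, against 0 of 30 homeostatic microglia genes. All 8 libraries had a peak at an end of 1 of 14 neuron genes, 2 of 12 astrocyte, 2 of 12 oligodendrocyte lineage, 2 of 12 endothelial and mural, 2 of 14 lymphocyte and neutrophil, 2 of 10 monocyte and 3 of 11 border-associated macrophage genes, against 26 of 30 homeostatic microglia genes. Over all genes, 41.7% had no peak at an end in any of the 8 libraries and 45.4% had one in all 8. The neuron gene was Prox1, of hippocampal granule cells, with 2.86 ± 0.312 kb of H3K9ac and 2.39 ± 0.0853 kb of H3K27ac (limma adjusted p = 0.0313), and Dlx2, of interneurons, had 0.389, 0.545, 0.726 and 0 kb of H3K9ac and none of H3K27ac (limma adjusted p = 0.0419); leaving out single libraries removed the call at Prox1 for 4 and at Dlx2 for 7 of the 8. Among astrocyte genes, the gap junction gene Gja1 had 1.05 ± 0.484 kb of H3K9ac and none of H3K27ac, whereas the glutamate transporter gene Slc1a3 had 3.40 ± 0.192 and 4.01 ± 0.424 kb (limma adjusted p = 0.0333), with the sign turned after quantile normalization and at listed starts. Long coverage was also present at the endothelial receptor gene Kdr (4.14 ± 0.595 and 5.47 ± 0.362 kb) and the B cell receptor gene Cd79a (2.27 ± 0.271 and 2.97 ± 0.244 kb, in a window shared with Arhgef1), both longer in H3K27ac. The part of other cells in these values was not tested. Border-associated macrophage genes were longer in H3K27ac at 4 of 6 tested (66.7%, beside 26.7% of all genes). After quantile normalization it was 3 (50%, beside 16.8%). Siglec1 stood at 0.916 ± 0.275 and 2.56 ± 0.136 kb, Cbr2 at 1.23 ± 0.180 and 3.11 ± 0.927 kb and Mrc1 at 2.26 ± 0.254 and 3.06 ± 0.0796 kb. The chemokine receptor gene Ccr2 of monocytes had no H3K9ac and 0.632, 0.494, 0.649 and 0.577 kb of H3K27ac. Of 39 Hox genes, which pattern the body axis, 7 were tested, with median levels of 0.317 kb of H3K9ac and 0 kb of H3K27ac. Of these 7, 2 (28.6%, beside 17.7% of all genes) were longer in H3K9ac and 0 in H3K27ac. The 2 were Hoxb4 (1.13 ± 0.0833 and 0.392 ± 0.104 kb) and Hoxc6 (0.602 ± 0.0838 and 0 ± 0 kb). Hoxc6, Dlx2 and Gja1 entered the test through H3K9ac peaks alone, and Ccr2 through H3K27ac peaks alone. Each could therefore differ in that direction only.

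Groups with general roles varied around the 17.7% and 26.7% of all genes. Immediate early genes were longer in H3K9ac at 2 of 22 and in H3K27ac at 5, which turned to 13 (59.1%) and 2 after quantile normalization; Mcl1, a survival gene, had 4.41 ± 0.313 and 7.12 ± 0.507 kb. Cytosolic ribosomal protein genes gave 3 (4.05%) and 17 (23%) of 74 (16 and 7 after quantile normalization) and replication-dependent histone genes 0 and 19 (30.6%) of 62 (23 and 7). Housekeeping genes gave 0 and 6 (40%) of 15, glycolysis 1 and 6 (42.9%) of 14 and antigen presentation 2 and 6 (31.6%) of 19, H3K9ac longer first. Oxidative phosphorylation gave 4 and 5 (21.7%) of 23 and proteasome 1 and 6 (26.1%) of 23, neither above the 26.7% of all genes. After quantile normalization housekeeping gave 3 and 2 (13.3%), glycolysis 2 and 1 (7.14%) and antigen presentation 4 and 3 (15.8%). Oxidative phosphorylation then gave 5 and 2 (8.7%) and proteasome 3 and 3 (13%). None of these 5 lists then stood above the 16.8% of all genes longer in H3K27ac. Within the antigen presentation list, the MHC class II gene H2-Ab1 was longer in H3K9ac (1.67 ± 0.50 and 0.716 ± 0.210 kb) and the immunoproteasome gene Psmb8 in H3K27ac (1.32 ± 0.117 and 2.01 ± 0.102 kb). Zinc finger genes named Zfp were even, with 60 and 58 of 319. Of all 367 Zfp genes, 13 had H3K9ac alone and none H3K27ac alone, beside 2.21% and 0.264% of all genes. Of 1465 olfactory and vomeronasal receptor genes 16 were tested, 1 longer in H3K9ac and 9 (56.3%) in H3K27ac.

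Over all genes, the smallest p values for H3K27ac longer included Bin1, a membrane-bending protein gene with a microglial enhancer nearby, at 3.55, 3.58, 3.27 and 3.60 kb of H3K9ac and 7.73, 7.70, 7.52 and 7.13 kb of H3K27ac. Distal regions within 50 kb of Bin1 held 21.7 ± 1.40 kb of H3K9ac and 44.7 ± 0.887 kb of H3K27ac. The GTPase gene Arf1 (2.58 ± 0.205 and 6.07 ± 0.148 kb), Ttpal (1.76 ± 0.199 and 5.96 ± 0.265 kb), Cmtm7 (3.37 ± 0.191 and 7.2 ± 0.265 kb), Limd2 (5.18 ± 0.173 and 8.39 ± 0.151 kb), the ubiquitin enzyme gene Ube2z (3.63 ± 0.147 and 6.82 ± 0.136 kb) and the chemokine receptor gene Ccr1l1 (3.36 ± 0.155 and 6.13 ± 0.0638 kb) were of the same kind, and none of their libraries overlapped between the marks. The remaining 3 of the 10, Gm2237, Gm3317 and Gm8246, are near-identical predicted genes and are uncertain. For H3K9ac longer, 8 of the 10 smallest p values were at H3K9ac alone genes described above. Of the 10, Elovl6, Gkap1, Plec, Cxcr4, Rragd, Reck, Cmpk2 and Abhd3 had no H3K27ac in the window. They entered the test through H3K9ac peaks alone, so they could differ in that direction only. The others were Abhd3, a phospholipase gene (1.24 ± 0.0253 kb of H3K9ac and none of H3K27ac), and Slc25a35, a mitochondrial carrier gene with 1.76, 1.91, 1.87 and 1.77 kb of H3K9ac and H3K27ac in replicate 1 alone (0.306 kb).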

How the data were processed

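ULI-NChIP-seq peak lists of 4 Ctrl H3K9ac and 4 Ctrl H3K27ac libraries were compared, with 1 narrowPeak list per library as the authors deposited it. Each list gives a peak's position, its fold enrichment over local background (a ratio, deposited by the authors), its −log10 p and −log10 q (deposited by the authors) and an integer score deposited with them. Per the submitters' processing notes, the tools included MACS2 2.2.7.1, Bowtie2 2.4.5, Trim Galore 0.6.5, DiffBind 3.12.0 and SAMtools 1.3.1, on build mm10. The notes give neither their roles nor options, nor a control library for the caller. The lists hold no read counts, so the depth of each library is unknown and no interval for counting error can be given. A peak's width also moves with the enrichment and depth of its library.

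Protein-coding genes on chromosomes 1 to 19 and X (21631) were taken from RefSeq GRCm38.p6, which uses the mm10 coordinates, and 17274 of them had a listed start in the promoter table. Genes counted as carrying a peak had one within 1 kb of either annotated end. Merged regions over 5 kb from every such end were distal. Kb under peaks, within 2.5 kb of either gene end or per distal region, were compared between marks with limma 3.58.1 (R 4.3.3) over features with a peak in at least 2 libraries, with Benjamini-Hochberg adjustment at 0.05; differences are H3K9ac minus H3K27ac. Library values were compared by two-sided exact permutation tests over 70 regroupings. Python 3.11.15, numpy 2.4.6, pandas 2.3.3 and scipy 1.17.1 were used. The limma step was tested on simulated data.

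Alternatives were a −log10 q of at least 5, lists of equal length, a 1 kb window, the listed start only, quantile normalization, log2(kb + 0.1), other filters and distances, the replicate number as a block, and each library left out. Genes were named by rule: the 10 smallest p values in each direction with no overlap, the 10 longest members of each class, the 3 largest differences of each list and a fixed set of 15; other names were chosen after their values were seen. The members and all 29 gene lists were chosen with earlier results of these data known. Other columns and the FGR H3K4me3 and H3K9me3 lists were not used. Values of a few genes that the rule names are not reported here, though the counts include them.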

Additional observations from a re-analysis of the deposited data

Results flagged for a closer look

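In 12 cases 1 library lay far from the other 3 of its group by Dixon's test, among 196 groups with any spread; chance alone flags about 1 in 20 groups. For kb of H3K9ac within 2.5 kb of a gene end these were Apoe in replicate 4 (1.92 kb, the others 2.5 to 2.61 kb), Bin1 in replicate 3 (3.27 kb), Cd33 in replicate 1 (0.286 kb, the others 0 kb), Fcgr3 in replicate 3 (2.10 kb), Ifngr1 in replicate 1 (3.49 kb), Mrc1 in replicate 3 (1.88 kb) and P2ry6 in replicate 3 (0.292 kb). For H3K27ac they were Mmp12 in replicate 2 (1.60 kb), P2ry6 and Plk1 in replicate 3 (0.267 kb each), Ptgs2 in replicate 2 (0.336 kb) and Slc25a35 in replicate 1 (0.306 kb). At Cd33, P2ry6, Plk1, Ptgs2 and Slc25a35 the library was the single one of its mark with any peak in the window.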

How the results depend on the processing

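Differences between libraries kept their direction under every alternative run. With peaks of −log10 q of at least 5, H3K9ac also had fewer peaks (log2 -0.21, exact permutation p = 0.0286). Leaving out 1 library gave log2 -0.12 to -0.06 for peak number, -0.58 to -0.55 for covered genome, -223 to -191 bp for median width, 910 to 980 for genes with a peak at an end, 3.13 to 4.06 and -4.36 to -3.60 percentage points for peaks at ends and distal, and -0.785 to -0.745 for distal peaks on X, an alternative chosen after seeing the data.

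Replicate numbers did not pair the samples (correlations of same-numbered deviations near 0, none over 0.1). With the number as a replicate block, the exact sign-flip test over 4 pairs gave its smallest possible p of 0.125 for covered genome (log2 -0.56), median width (-209 bp), genes at ends (940), peaks at ends (3.66), distal peaks (-3.98) and distal peaks on X (-0.774); limma with the block called 2029 and 3257 genes and 1374 and 13957 distal regions, H3K9ac longer first.

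Genes longer in H3K27ac numbered 2215 with a 1 kb window, 2195 at listed starts and 2153 after quantile normalization; leaving out 1 library gave 1862 to 2068 longer in H3K9ac and 2976 to 3313 longer in H3K27ac. Distal regions longer in H3K9ac numbered 931 at −log10 q of at least 5 and 4938 after quantile normalization, and those longer in H3K27ac 5060; leaving out 1 library gave 1226 to 1499 and 13028 to 14606. H3K27ac alone held 16 genes at listed starts. With at least 50% of a region covered, 3326 distal regions had both marks and 5231 had H3K27ac alone; at −log10 q of at least 5, 360 had H3K9ac alone. Leaving out 1 library gave 9845 to 9931, 489 to 557 and 62 to 80 genes with both, H3K9ac alone and H3K27ac alone, and 10933 to 11367, 749 to 975 and 2527 to 3126 distal regions. The cause of these changes was not tested.

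Of 156 genes followed, 143 passed the threshold and 81 kept the call under every alternative. The sign turned after quantile normalization at Actb (1.3 kb), Ifnar2 (0.46), Klf6 (0.090), Ltc4s (1.2), P2ry13 (1.62), Slc1a3 (0.16) and Spi1 (0.69), and at listed starts at Mertk (0.0385), Nr4a1 (0.26), Slc1a3 (0.54), Tmem176b (0.19) and Yeats4 (0.19). Without single libraries P2ry13 and Slc1a3 also lost their calls, and Actb, Apoe, Ep300, Irf8, Kat2a and Mef2c passed.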
